A study of Mus musculus with 15 samples.

Results

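Levels of 8 genes of homologous recombination, the Fanconi pathway and their checkpoint were followed in mouse liver: Chek1, Fancd2, Exo1, Blm, Brca1, Brca2, Rad51ap1 and Rad54l. They were found on the array as all probe sets annotated with exactly 1 of these symbols, which gave 26 of the 34945 probe sets that carry a single gene symbol, and 8 of 18193 genes. Homologous recombination repairs a broken chromosome by copying the sister chromatid, so it works mainly in cells that replicate their DNA. The Fanconi pathway removes crosslinks between the DNA strands and hands the resulting breaks to the same machinery. In resting liver few hepatocytes divide, and after injury many re-enter the cell cycle, in which genes of this kind are known to be switched on with DNA replication.

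The series contains 15 whole-liver RNA samples, 1 array each, from mice aged 15 weeks, and concerns gut bacteria and Tlr4, the receptor for bacterial lipopolysaccharide, in liver cancer promotion. Untreated wild-type C3H/HeOuJ mice gave arrays 1 to 3. Treated wild-type C3H/HeOuJ mice (arrays 4 to 7) received the liver carcinogen diethylnitrosamine (DEN, 100 mg/kg at 12 weeks of age) and the liver toxin carbon tetrachloride (CCl4, 0.50 ml/kg, once in week 13 and once in week 15), and were killed 48 hours after the second CCl4 dose. Treated mutant mice (arrays 8 to 11) were C3H/HeJ, which carry the Tlr4P712H mutation, and had the same DEN and CCl4. The antibiotic group (arrays 12 to 15) consisted of wild-type C3H/HeOuJ mice with the same DEN and CCl4, whose drinking water had held vancomycin (500 mg/l) and 3 further antibiotics (ampicillin, metronidazole and neomycin, all at 1 g/l) over 2 weeks from the age of 10 weeks. C3H/HeJ and C3H/HeOuJ are separate substrains and no untreated mutant group was analysed here, so the Tlr4 mutation, the substrain and any difference before treatment cannot be told apart. All mice are labelled male except the mouse of array 8, for which no sex is given. A further label that mentions liver resection and younger mice contradicts the others and was not used. No label says whether each array is a separate mouse, so p-values measure the spread between arrays, which may in part be technical.

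All 8 hepatocyte markers were detected on the arrays, with a summed level of 16.9 to 17.14 over the 15 arrays (log2 of the sum of the linear values). Levels throughout are log2 GCRMA values, in which 1 unit is a doubling, and differences are log2 differences ± SE. Levels under 4 count as near background here. A fold written as "at least" was computed with such levels raised to 4 in the lower group; a log2 difference against such levels is a fitted value and no bound. A gene called higher or lower had an adjusted p under 0.05 in limma over all 9482 genes that passed the filter on low values. Levels of different genes come from different probe sets and are not compared with each other.

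The proximal promoters were searched for elements known from cell cycle genes. RefSeq promoter windows (build GRCm38.p6, 250 bases before the transcription start and 50 after it) were listed for 6 of the 8 genes, Brca1, Brca2, Rad51ap1, Blm, Rad54l and Chek1. An E2F heptamer (TTGGCGC or TTCCCGC, or else TTCGCGC or TTGCCGC, on either strand), the core of the site of E2F factors that drive genes of the G1 to S transition, was present in 5 of these 6 windows. One was held by 9.6% of all 32851 windows, and of the windows of 7762 genes tested here 17.7% did. The 5 stretches are shown 5′ to 3′ on the gene's strand because they carry this shared element, with the heptamer or its reverse complement in capitals and up to 10 bases on each side.
Brca1: ctagcgctagGCGCCAAgcggccggtt
Brca2: ttaggccacaGCGGGAAacagacacac
Rad51ap1: ctggttttcgGCGGGAAttgaaaccgc
Blm: atcatccttcTTGCCGCgcagagcgtg
Chek1: gcaggttttgGCGGGAA
The stretches lie at chr11:101551918-101551944 (minus strand) for Brca1, chr5:150522443-150522469 (plus) for Brca2, chr6:126939559-126939585 (minus) for Rad51ap1, chr7:80535124-80535150 (minus) for Blm and chr9:36726609-36726625 (minus) for Chek1. In Brca2 and Blm the heptamer lay before the start, at -168 to -162 and at -142 to -136. In Brca1, Rad51ap1 and Chek1 it lay just after it, at 22 to 28, at 13 to 19 and at 44 to 50 bases. The Brca2, Rad51ap1 and Chek1 windows held the same heptamer, TTCCCGC, on the strand opposite to the gene.

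A CCAAT box (CCAAT on either strand), a common element of cell cycle promoters, was found in 4 of the 6 windows. These were the windows of Brca1, Rad51ap1, Blm and Rad54l. It was held by 37.4% of all windows and 39.4% of those of tested genes. The CHR hexamer TTTGAA, an element of genes that peak in G2 and mitosis, was found in 0 of the 6 windows. It was held by 17.9% of all windows and 12.0% of those of tested genes. The 120 bases before the start are shown for the 3 genes with a CCAAT box there, with CCAAT, or ATTGG where the box is on the opposite strand, in capitals.
Brca1: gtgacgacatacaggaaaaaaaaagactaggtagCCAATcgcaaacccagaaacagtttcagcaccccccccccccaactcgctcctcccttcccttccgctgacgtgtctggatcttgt
Rad51ap1: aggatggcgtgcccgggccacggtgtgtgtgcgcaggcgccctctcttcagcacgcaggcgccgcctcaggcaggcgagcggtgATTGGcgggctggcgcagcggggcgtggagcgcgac
Rad54l: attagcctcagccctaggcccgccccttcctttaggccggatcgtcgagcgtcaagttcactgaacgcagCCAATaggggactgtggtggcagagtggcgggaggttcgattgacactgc
These windows lie at chr11:101551956-101552075, chr6:126939588-126939707 and chr4:116123691-116123810, all on the minus strand. The box of Rad54l, the only one of the 6 windows without an E2F heptamer, began 50 bases before the start. A match is a description of letters in the window, and whether any factor bound there was not measured.

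In treated wild-type liver all 8 genes were higher than in untreated liver, by 1.74 to 6.73, where 35.9% of all genes tested were called higher. In the treated mutant all 8 were lower than in treated wild type, with differences of -0.73 to -2.15 (17.6% of all genes). The antibiotic group lay below treated wild type for 6 of the 8 (9.01% of all genes), while Brca2 and Chek1 did not pass the test. These counts include Fancd2, which could be tested only through treated wild-type arrays; of the other 7 genes, 7 were lower in the mutant and 5 in the antibiotic group. Between the treated mutant and the antibiotic group 0 of the 8 were called (12.3% of all genes in either direction). All 8 were higher than in untreated liver in the mutant (32.6% of all genes) and in the antibiotic group (34.5%). In whole-liver RNA, fewer cells that express a gene and less RNA of it per cell cannot be told apart.

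**Figure D1:**
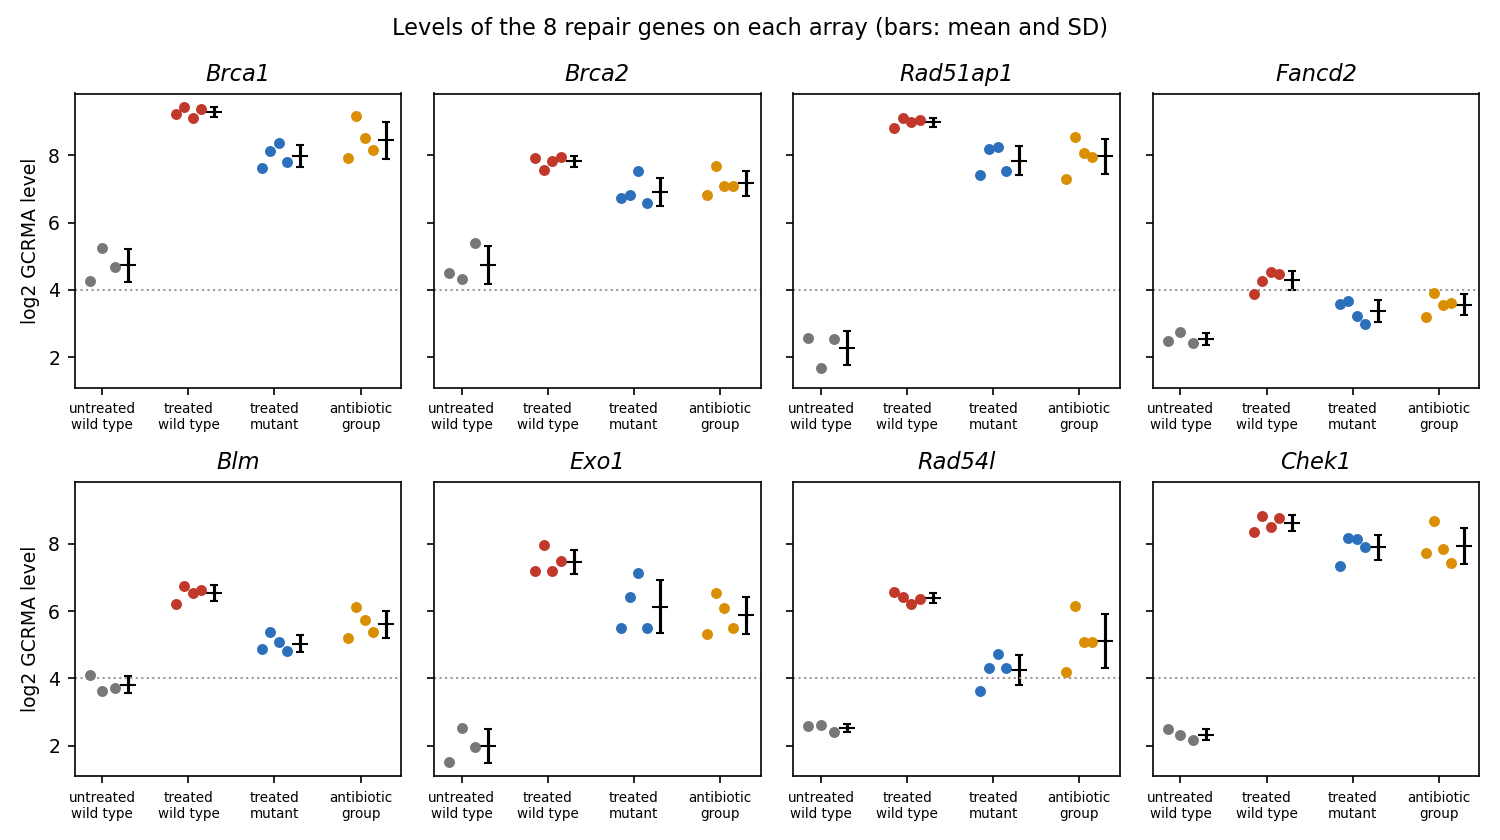
Log2 GCRMA level (vertical axis) of the 8 genes on each of the 15 arrays, by group, with bars for the mean and SD; levels under the dotted line at 4 were taken as near background. For every gene the treated wild-type points lie above all untreated and all mutant points, and the antibiotic points spread widest for Rad54l (4.19 to 6.15).

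Against untreated liver, the 8 differences of treated wild type ran from 1.74 (Fancd2) to 6.73 (Rad51ap1), with a median of 4.21, or 3.27 with values under 4 set to 4. The median over all genes was 0.101, or -0.122 with arrays centred on their median and -0.112 with quantile normalization, and all 8 stayed called higher under both. In 37.5% of all genes every treated array lay above every untreated one, against 8 of 8 here. Brca1 and Brca2 reached 4 on all 3 untreated arrays. The other 6 genes passed the filter through treated arrays, and Fancd2 through treated wild-type arrays alone, so for these a rise from a level near background is in part built into the set of genes that can be tested. The 14 probe sets of the 8 genes that passed were all called higher (34.2% of all probe sets tested).

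Chek1 encodes the kinase that ATR activates at stalled replication forks and that holds back entry into mitosis. Its level (probe set 1449708_s_at) was 2.48, 2.33 and 2.16 in untreated liver and 8.36, 8.84, 8.49 and 8.78 in treated wild type. The mutant arrays read 7.35, 8.17, 8.15 and 7.90, and the antibiotic arrays 7.74, 8.68, 7.85 and 7.43. All treated arrays stood far above the untreated ones, which were near background, and the mutant arrays lay just under the treated wild-type range. Treated wild type exceeded untreated by 6.30 ± 0.26 (adjusted p = 1.59e-10), at least 24.6-fold. The mutant was 1.66-fold lower than treated wild type (-0.73 ± 0.24, adjusted p = 0.0323). This call was lost without array 5, 7, 8 or 11 (adjusted p = 0.0858, 0.0811, 0.108 and 0.0567). In the antibiotic group array 13 fell inside the treated wild-type range and the difference of -0.69 ± 0.24 was not called (adjusted p = 0.0667). It was called without array 13 (-0.95, adjusted p = 0.00623), without mutant array 8 (-0.69, adjusted p = 0.0475) and with arrays weighted by quality (-0.80, adjusted p = 0.0128).

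Fancd2 encodes the protein whose monoubiquitination is the central step of the Fanconi pathway. Its level (probe set 1439091_at) lay close to background in every group. The untreated arrays read 2.48, 2.74 and 2.41, and the treated wild-type arrays 3.89, 4.26, 4.53 and 4.46. In the mutant it was 3.57, 3.68, 3.22 and 2.98, and in the antibiotic group 3.18, 3.91, 3.54 and 3.62. Only 3 arrays, all treated wild type, reached 4. The treated wild-type arrays lay above all untreated and all mutant arrays, while antibiotic array 13 overlapped with them. Treated wild type was higher than untreated by 1.74 ± 0.20 (adjusted p = 4.37e-06), at least 1.22-fold. The mutant was lower than treated wild type by a log2 difference of -0.92 ± 0.19 (adjusted p = 0.00224) and the antibiotic group by -0.72 ± 0.19 (adjusted p = 0.0215), both at least 1.22-fold. Since Fancd2 passed the filter only through treated wild-type arrays, lower levels in the other groups are in part built in. With values under 4 set to 4 the antibiotic call was lost (-0.31, adjusted p = 0.0504). It was lost also without array 6, 7 or 12 (adjusted p = 0.0606, 0.0650 and 0.0682).

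Exo1 encodes the exonuclease that resects broken ends into the single strands on which recombination starts, and also acts in mismatch repair. It (probe set 1418026_at) was near background in untreated liver, at 1.51, 2.51 and 1.96, and at 7.19, 7.97, 7.20 and 7.49 in treated wild type. In the mutant it stood at 5.49, 6.41, 7.12 and 5.51 and the antibiotic arrays 5.33, 6.54, 6.10 and 5.51. Both groups lay wholly below treated wild type, mutant array 10 only by a narrow margin, and the 4 mutant arrays were the most scattered of any group for the 8 genes apart from the antibiotic arrays for Rad54l. Treated wild type was at least 11-fold above untreated (5.47 ± 0.39, adjusted p = 3.35e-08). The mutant was 2.51-fold lower than treated wild type (-1.33 ± 0.36, adjusted p = 0.0129). The antibiotic group was 3.01-fold lower (-1.59 ± 0.36, adjusted p = 0.0119). Exo1 was the single gene of the 8 with a mean in the mutant above that of the antibiotic group, by 0.26 with a 95% confidence interval of -0.52 to 1.04 (adjusted p = 0.681).

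Blm encodes the helicase that dissolves double Holliday junctions and limits crossing over. On probe set 1448953_at the untreated arrays read 4.11, 3.63 and 3.70 and the treated wild-type arrays 6.20, 6.76, 6.54 and 6.64. The mutant arrays read 4.86, 5.37, 5.09 and 4.80, and the antibiotic arrays 5.21, 6.11, 5.74 and 5.37. All 3 treated groups stood above untreated liver, and treated wild type stood above both others without overlap. The rise in treated wild type was at least 5.66-fold (2.72 ± 0.21, adjusted p = 7.76e-08). Its level in the mutant was 2.83-fold below treated wild type (-1.50 ± 0.20, adjusted p = 7.51e-05), and in the antibiotic group 1.90-fold below (-0.93 ± 0.20, adjusted p = 0.0087). The difference between those groups was -0.58 with a 95% interval of -1 to -0.15, which was not called over all genes (adjusted p = 0.0719). It was called without antibiotic array 12 (-0.71, adjusted p = 0.0321).

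Brca1 acts in end resection and, through Palb2, in bringing Brca2 to the break. Probe set 1424629_at read 4.27, 5.25 and 4.68 in untreated liver and 9.24, 9.44, 9.10 and 9.38 in treated wild type. Mutant arrays stood at 7.62, 8.13, 8.38 and 7.79 and the antibiotic arrays 7.93, 9.18, 8.52 and 8.16. Untreated liver was above background on all 3 arrays, so the fold was measured on both sides. It was 23.6-fold (4.56 ± 0.28, adjusted p = 7.4e-09). The mutant was 2.49-fold lower than treated wild type (-1.32 ± 0.26, adjusted p = 0.00168). In the antibiotic group array 13 reached the treated wild-type range, the other arrays lay below it, and the difference was -0.85 ± 0.26 (adjusted p = 0.0438). That call sat at the threshold. It was lost with arrays centred on their median (adjusted p = 0.0534), with no filter (0.0597) and with the 2 groups fitted alone (0.0579). Leaving out array 3, 4, 5, 6, 7, 9, 11, 12, 14 or 15 also ended it, with adjusted p up to 0.128 (without array 12).

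Brca2 acts after resection, on the single-stranded DNA at the break. Levels on probe set 1419076_a_at were 4.51, 4.32 and 5.38 in untreated liver and 7.92, 7.57, 7.83 and 7.96 in treated wild type. On mutant arrays the level was 6.73, 6.81, 7.53 and 6.58 and the antibiotic arrays 6.81, 7.69, 7.09 and 7.09. Mutant array 10 came close to the lowest treated wild-type array without reaching it, and antibiotic array 13 overlapped with that group. The rise over untreated liver was 8.46-fold (3.08 ± 0.27, adjusted p = 2.46e-07). The mutant was 1.88-fold lower than treated wild type (-0.91 ± 0.25, adjusted p = 0.0138). The antibiotic difference of -0.65, with a 95% interval of -1.19 to -0.11, was not called (adjusted p = 0.0996). Without array 13 it was -0.82 and was called (adjusted p = 0.0395).

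Rad51ap1 encodes a protein that promotes strand pairing. On probe set 1417938_at untreated arrays were at 2.57, 1.68 and 2.53, all near background, and treated wild-type arrays at 8.80, 9.10, 8.99 and 9.06. The mutant arrays read 7.43, 8.18, 8.25 and 7.52, and the antibiotic arrays 7.31, 8.56, 8.06 and 7.96. Treated wild type was the highest group without overlap with any other. It exceeded untreated liver at least 31.8-fold (6.73 ± 0.29, adjusted p = 2.59e-10). The mutant was 2.21-fold lower than treated wild type (-1.14 ± 0.27, adjusted p = 0.00498) and the antibiotic group 2.02-fold lower (-1.01 ± 0.27, adjusted p = 0.0218). The antibiotic call was lost without array 5, 7 or 12 (adjusted p = 0.0537, 0.0559 and 0.0665).

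Rad54l encodes a motor protein that takes part in the invasion of the intact strand. Its level on probe set 1450862_at was near background at 2.58, 2.61 and 2.40 in untreated liver and read 6.56, 6.43, 6.20 and 6.36 in treated wild type. The mutant arrays read 3.63, 4.30, 4.71 and 4.32 and the antibiotic arrays 4.19, 6.15, 5.07 and 5.08. Every mutant array was well below every treated wild-type array, and antibiotic array 13 stood just under the lowest treated wild-type array. Treated wild type was at least 5.24-fold above untreated (3.86 ± 0.33, adjusted p = 2.11e-07). The mutant was at least 4.16-fold lower than treated wild type (-2.15 ± 0.31, adjusted p = 0.000157). The antibiotic group was 2.41-fold lower (-1.27 ± 0.31, adjusted p = 0.0157). Mutant and antibiotic group differed by -0.88, with a 95% interval of -1.55 to -0.22 (adjusted p = 0.0773). That difference was called without antibiotic array 12 (-1.19, adjusted p = 0.0107) and without mutant array 10 (-1.04, adjusted p = 0.0494).

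**Figure D2:**
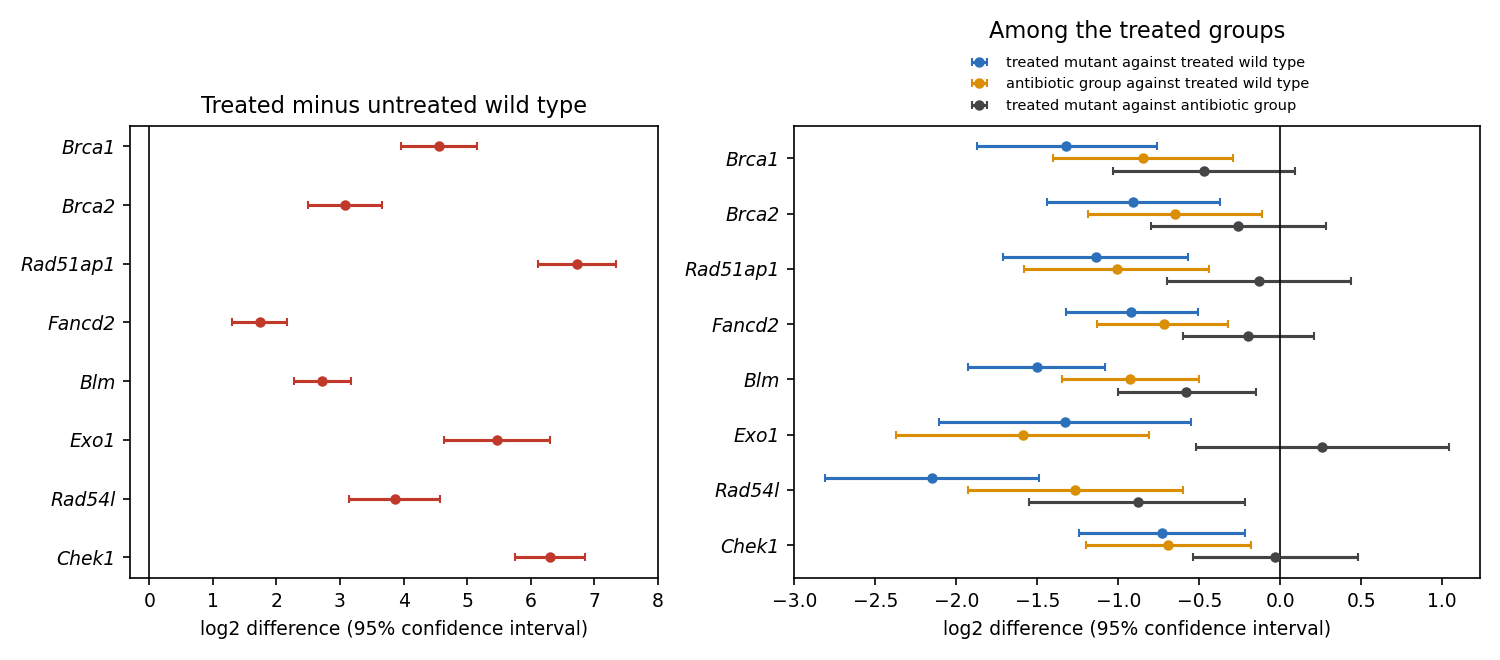
Log2 differences of the 8 genes with 95% confidence intervals: treated minus untreated wild type on the left, and on the right the treated mutant against treated wild type (blue), the antibiotic group against treated wild type (orange) and the treated mutant against the antibiotic group (black). All blue intervals lie below 0, and the black intervals of 6 of the 8 genes include 0, those of Blm and Rad54l ending at -0.15 and -0.22.

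Side by side, the mutant differences from treated wild type ran from -2.15 to -0.73 with a median of -1.23, and the median over all genes was 0.02. All 8 were without overlap between arrays, where 17.6% of all genes had every mutant array below every treated wild-type one. The antibiotic differences ran from -1.59 to -0.65 with a median of -0.89, against -0.03 over all genes. Here 4 of 8 were without overlap, against 11.6% of all genes. These 4 were Rad51ap1, Blm, Exo1 and Rad54l. Both comparisons use the same 4 treated wild-type arrays. At an adjusted p under 0.01 the counts were 5 in the mutant, where 11.6% of all genes were called lower, and 1 in the antibiotic group, Blm, where 3.06% were. Fancd2, which could be tested only through treated wild-type arrays, is part of these medians. In the mutant it is also part of the count without overlap and of the 5 at an adjusted p under 0.01.

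The difference between the mutant and antibiotic groups was tested directly. It ran from -0.88 to 0.26 over the 8 genes, with a median of -0.23, and 0 of 8 genes were called by limma. At an unadjusted p under 0.05, 2 of the 8 passed, Blm and Rad54l, a share close to the 28.2% of all genes that did. The lower ends of the 95% intervals ran from -0.52 (Exo1) to -1.55 (Rad54l), and the upper end for Exo1 was 1.04, so equal levels in these groups are not shown.

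Compared with untreated liver, the 8 genes were higher by 0.82 to 5.59 in the treated mutant and by 1.02 to 5.72 in the antibiotic group. Rad51ap1 and Chek1 were above untreated liver at least 14.4-fold and 14.8-fold in the mutant and at least 15.7-fold and 15.2-fold in the antibiotic group. Brca1 was 9.47-fold above untreated liver in the mutant (3.24 ± 0.28, adjusted p = 4.17e-07) and 13.1-fold in the antibiotic group (3.71 ± 0.28, adjusted p = 9.32e-08). For Rad54l the mutant was at least 1.18-fold above untreated liver (1.71 ± 0.33, adjusted p = 0.000649), and that call was lost with values under 4 set to 4 (0.33, adjusted p = 0.398). Fancd2 was under 4 on every array of these groups, so no fold is given, and its calls were lost with quantile normalization (adjusted p = 0.585 in the mutant and 0.598 in the antibiotic group).

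Other probe sets of the same genes were tested for 3 of them, and are not independent of the first. Rad51ap1 had 2 more that passed the filter, of which 1448899_s_at fell in the mutant (-1.50 ± 0.33, adjusted p = 0.00373) and in the antibiotic group (-1.46 ± 0.33, adjusted p = 0.0125). The dim 1417939_at was called lower in the mutant (-0.95 ± 0.29, adjusted p = 0.0238), at least 1.11-fold, but not in the antibiotic group (-0.67 ± 0.29, adjusted p = 0.145). It reached 4 on 2 treated wild-type arrays and 1 antibiotic array and on no mutant array. Without treated wild type it would not have passed the filter, so its lower level in the mutant is in part built in. The other Rad54l probe sets, 1423123_at and 1423124_x_at, fell in the mutant (-1.70 and -1.46) and in the antibiotic group (-1.18 and -0.84), all 4 called. Both reached 4 on 1 array outside treated wild type, so they passed the filter through that group, and the mutant folds are at least 2.06-fold and at least 1.62-fold. Of the Chek1 probe sets, 1450677_at gave -0.87 ± 0.24 in the mutant (adjusted p = 0.0161) and -0.76 ± 0.24 in the antibiotic group (adjusted p = 0.0551), close to the values of the probe set that stood for the gene. The dimmer 1439208_at gave -0.39 ± 0.31 (adjusted p = 0.373) and -0.48 ± 0.31 (adjusted p = 0.337). Over all 14 probe sets, 13 were called lower in the mutant (16.1% of all probe sets) and 9 in the antibiotic group (7.86%), but only 9 of the 14 would have passed the filter without treated wild type. The remaining 12 of the 26 probe sets failed the filter, at levels of 1.39 to 4.80, and were not tested.

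Within a group, several genes ordered the arrays alike. Antibiotic array 13 was the highest of its group for 8 of 8 genes, with a median of 0.63 above the group mean, and array 12 the lowest for 7 of 8, at -0.46. The median over all genes lay at -0.022 and 0.015 from the group mean on these arrays. Mki67, a marker of dividing cells that is not among the 8 genes, was 0.94 above its group mean on array 13 and -1.27 from it on array 12. On arrays 14 and 15 the order differed, with Mki67 at -0.39 and 0.71 and the median of the 8 genes at 0.02 and -0.16. In the mutant group array 10 was highest for 5 genes and array 9 for 3, and array 8 was lowest for 5 and array 11 for 3. There Mki67 did not follow the same order, at -0.65 from the group mean on array 10 and 0.48 on array 8.

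**Figure D3:**
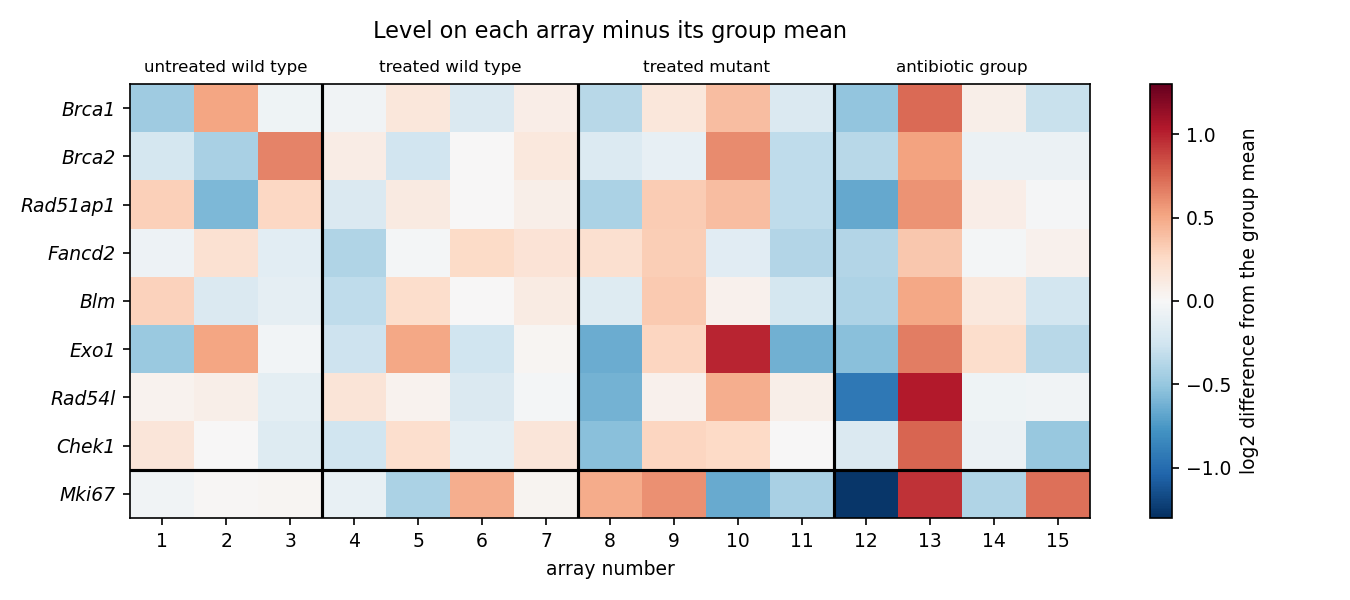
Log2 level of each of the 8 genes, and of Mki67 in the bottom row, minus the mean of its group, by array (red above, blue below the group mean). Array 13 is red and array 12 blue in every row, with Mki67 at 0.94 and -1.27.

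Markers of dividing cells, and most markers of macrophages, also differed between these groups. The summed level of the 14 proliferation markers detected out of 15 was 9.74 to 10.13 in untreated liver, 14.87 to 15.14 in treated wild type, 13.44 to 13.81 in the mutant and 13.35 to 14.64 in the antibiotic group. Mki67 itself was 4.65-fold lower in the mutant than in treated wild type (-2.22 ± 0.41, adjusted p = 0.00107) and 3.02-fold lower in the antibiotic group (-1.59 ± 0.41, adjusted p = 0.0203). The 9 macrophage markers detected out of 10 summed to 9.45 to 10.87 in untreated liver, 12.07 to 12.69 in treated wild type, 9.76 to 10.31 in the mutant and 10.98 to 12.01 in the antibiotic group. Against treated wild type, 8 of these 9 fell in the mutant (17.6% of all genes) and 7 in the antibiotic group (9.01%). Cd68 fell in neither, with means of 9.29 in treated wild type, 9.32 in the mutant and 10.15 in the antibiotic group. Against untreated liver, 6 of the 9 were lower in the mutant (21.5% of all genes) and 2 higher (32.6%). Markers of stellate and endothelial cells fell in the mutant too, 6 of 6 tested in both lists, and in the antibiotic group 3 of 6 and 0 of 6. Of 6 neutrophil markers S100a8 and S100a9 were detected, and Mpo and Elane reached at most 2.83 and 2.30. The 2 detected markers rose in treated wild type (median 2.66) and were lower in the mutant (median -1.87) and in the antibiotic group (median -1.97). Both passed the filter only through treated wild-type arrays, so these differences are in part built in. In the other groups S100a8 reached at most 4.05 and S100a9 at most 3.82, so the medians are fitted values and no bounds. Of 8 T and NK cell markers 0 passed the filter, and of 5 B cell markers only Ighm did. The part of dividing cells, macrophages, neutrophils or other non-parenchymal cells in the levels of the 8 genes was not tested.

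Other genes of these pathways gave a mixed picture. For the counts of this list and those below, 35.9% of all genes were called higher and 26.7% lower in treated against untreated wild type. Against treated wild type, 17.6% were called lower and 13.2% higher in the mutant, and 9.01% lower and 4.95% higher in the antibiotic group. Among recombinases and mediators, 9 of 15 tested rose and 1 fell in treated against untreated wild type, with a median difference of 0.77. Fignl1, an ATPase of recombination, rose by 7.35 ± 0.28 (adjusted p = 7.35e-11). Palb2, which joins Brca1 to Brca2, rose by 2.40 ± 0.23 (adjusted p = 4.71e-07), and Mcm8, a helicase of recombination, by 2.33 ± 0.28 (adjusted p = 5.9e-06). Zswim7 fell (-1.02 ± 0.20, adjusted p = 0.000497). In the mutant 5 of 15 were lower than in treated wild type and 0 higher (17.6% of all genes lower). With arrays centred on their median or with quantile normalization 3 of 15 were lower, near that share. Among the 5 were Mcm8 (-1.29 ± 0.26, adjusted p = 0.00203), Fignl1 (-0.95 ± 0.26, adjusted p = 0.0113) and Palb2 (-0.63 ± 0.21, adjusted p = 0.0331). These 3 were lower in the antibiotic group as well (-1.17, -1.06 and -0.78). Rad51b was higher in the antibiotic group than in treated wild type (adjusted p = 0.0262), at least 1.22-fold, with every treated wild-type array under 4. It passed the filter only through antibiotic arrays, so this difference is in part built in. Rad51b is also among the 9 genes that rose in treated wild type, although all arrays of treated and untreated wild type lay under 4. With quantile normalization the counts in treated wild type were 6 higher and 2 lower of 15, near the 35.9% of all genes called higher without that scaling. Bard1, the partner of Brca1, reached only 2.70 on any array.

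Of the resection factors, helicases and junction nucleases, 12 of 14 tested were higher and 1 was lower in treated wild type (median 1.22). Rpa2, a subunit of the complex that coats single-stranded DNA, rose by 4.74 ± 0.24 (adjusted p = 9.85e-10), Mre11a, the nuclease that starts resection, by 3.31 ± 0.27 (adjusted p = 1.21e-07), and Gen1, a Holliday junction resolvase, by 2.68 ± 0.20 (adjusted p = 5.96e-08). Recql5 fell (-0.68 ± 0.14, adjusted p = 0.000834). In the mutant 9 of 14 were lower than in treated wild type (17.6% of all genes), with Mre11a at -1.56 ± 0.25 (adjusted p = 0.000389) and Gen1 at -1.27 ± 0.19 (adjusted p = 0.000206). In the antibiotic group 5 of 14 were lower (9.01% of all genes), with Mre11a at -1.10 ± 0.25 (adjusted p = 0.0121) and Gen1 at -0.93 ± 0.19 (adjusted p = 0.00709).

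Of the other Fanconi genes, 9 of 14 tested rose in treated wild type and 1 fell (median 1.59). Fancb, a subunit of the core ubiquitin ligase, rose by 4.82 ± 0.46 (adjusted p = 5.02e-07), Ube2t, the conjugating enzyme that modifies Fancd2, by 4.57 ± 0.36 (adjusted p = 8.01e-08), and Fanci, the partner of Fancd2, by 2.43 ± 0.27 (adjusted p = 2.71e-06). Fancc fell (-1.09 ± 0.25, adjusted p = 0.00141), but it passed the filter only through untreated arrays, so this fall is in part built in. In the mutant 7 of 14 were lower than in treated wild type (17.6% of all genes), including Ube2t (-1.78 ± 0.33, adjusted p = 0.00116), Fanci (at least 1.43-fold, adjusted p = 0.000236) and Fancb (-1.51 ± 0.42, adjusted p = 0.0147). The antibiotic group had 5 of 14 lower (9.01% of all genes), including Ube2t (-1.41, adjusted p = 0.0137), Fanci (at least 1.4-fold, adjusted p = 0.0109) and Usp1, which removes the ubiquitin of Fancd2 (-0.75, adjusted p = 0.00176). Fanci would not have passed the filter without treated wild-type arrays. Its rise in treated wild type and its lower levels in both other groups are therefore in part built in. It is part of the 9 that rose and of both counts of lower genes. Fancl, the catalytic subunit of the ligase, was higher in the antibiotic group than in treated wild type (0.55 ± 0.15, adjusted p = 0.0254).

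Along the ATR and Chek1 checkpoint, 10 of 13 genes tested rose in treated wild type and 0 fell (median 1.54). Clspn, the adaptor through which ATR reaches Chek1, rose by 5.91 ± 0.38 (adjusted p = 1.12e-08), Timeless, of the fork protection complex, by 4.90 ± 0.23 (adjusted p = 6.37e-10), and Topbp1, an ATR activator, by 3.32 ± 0.23 (adjusted p = 2.17e-08). In both the mutant and the antibiotic group 7 of 13 were lower than in treated wild type (17.6% and 9.01% of all genes). The differences for Clspn were -2.02 ± 0.35 (adjusted p = 0.000678) and -1.17 ± 0.35 (adjusted p = 0.0396), and those for Cdc25c, a phosphatase that Chek1 inhibits, were at least 1.7-fold in both (adjusted p = 0.000552 and 0.00938), with all arrays of both groups under 4. Cdc25c passed the filter only through treated wild-type arrays, so its lower levels are in part built in. It is part of both counts of 7. With arrays centred on their median the antibiotic count was 4. Among ATM and break signalling genes 8 of 12 rose in treated wild type (35.9% of all genes), 5 fell in the mutant (17.6%) and 4 in the antibiotic group (9.01%). Chek2, the kinase downstream of ATM, rose by 2.97 ± 0.22 (adjusted p = 4.22e-08) and was lower in the mutant (at least 2.71-fold, adjusted p = 0.000114), whereas Babam2 was higher in the mutant (1.02 ± 0.20, adjusted p = 0.00159).

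The other repair routes were counted in the same way. In treated against untreated wild type the medians were 0.77 for 6 end joining genes (4 higher, 1 lower), 0.24 for 5 mismatch repair genes (3 and 1), 0.29 for 14 nucleotide excision repair genes (5 and 2, near the 35.9% of all genes called higher) and 0.48 for 17 genes of base excision repair and alkyl reversal (9 and 2). The splits of nucleotide and base excision repair depended on the scaling, at 2 higher and 2 lower with arrays centred for nucleotide excision repair, and 5 higher and 4 lower with quantile normalization for base excision repair. Xpa and Xpc, which recognise and verify bulky lesions in nucleotide excision repair, fell in treated wild type (-1.39 ± 0.20, adjusted p = 2.74e-05, and -1.23 ± 0.17, adjusted p = 1.66e-05) and were higher in the mutant than in treated wild type (0.66 ± 0.18, adjusted p = 0.0138, and 0.47 ± 0.15, adjusted p = 0.0323). Paxx, of end joining, fell (-1.80 ± 0.24, adjusted p = 1.23e-05). Neil3, a glycosylase known from dividing cells, rose by 2.41 ± 0.38 (adjusted p = 7.19e-05) and was lower in the mutant (at least 2.98-fold, adjusted p = 0.00081), and Msh6, of mismatch recognition, rose by 3.38 ± 0.27 (adjusted p = 1.09e-07). Mutant counts for end joining were 4 of 6 lower (17.6% of all genes), and 1 lower and 1 higher with quantile normalization. Mismatch repair had 2 of 5 lower. Nucleotide and base excision repair had 2 of 14 and 2 of 17 lower, near the share of all genes, and each had 2 higher. In the antibiotic group 0 of 6 end joining genes were lower (9.01% of all genes). Mismatch repair had 2 of 5 lower there, or 0 with quantile normalization, and nucleotide and base excision repair 2 of 14 and 2 of 17.

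Regulators that act on cell cycle promoters rose in 12 of 17 cases in treated wild type and fell in 1 (median 1.53). Rbl1, a pocket protein of E2F complexes, rose by 6.08 ± 0.25 (adjusted p = 1.52e-10), the repressor E2f8 by 4.20 ± 0.36 (adjusted p = 2.13e-07) and the activator E2f1 by 3.03 ± 0.26 (adjusted p = 1.56e-07). Rbl2, the pocket protein of resting cells, fell (-1.23 ± 0.24, adjusted p = 0.000484). In the mutant 7 of 17 were lower than in treated wild type (17.6% of all genes), among them Foxm1, which drives mitotic genes (at least 1.97-fold, adjusted p = 0.00205), while E2f1 gave -0.46 ± 0.24 (adjusted p = 0.159). The antibiotic group had 5 of 17 lower (9.01% of all genes), Foxm1 again among them (at least 1.69-fold, adjusted p = 0.0181). Without treated wild-type arrays Foxm1 would not have passed the filter, so its lower levels in both groups are in part built in. It is part of the counts of 7 and 5.

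**Figure D4:**
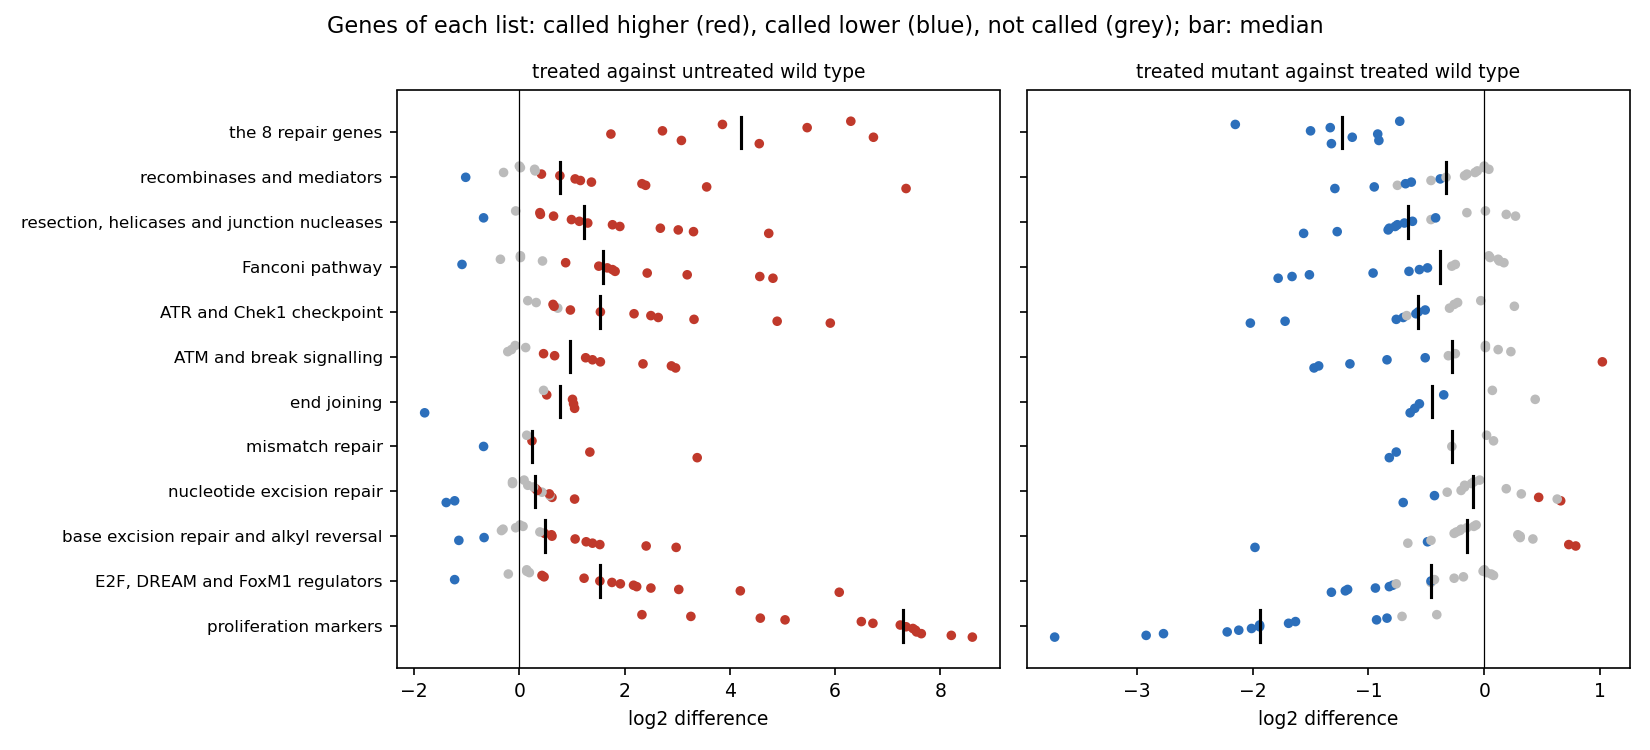
Log2 difference of each tested gene of the repair, regulator and proliferation lists (red called higher, blue called lower, grey not called) with the median as a bar, for treated against untreated wild type (left) and the treated mutant against treated wild type (right). The 8 genes have medians of 4.21 and -1.23, between those of the other repair lists and of the proliferation markers (7.30 and -1.94).

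The genes nearest in pattern to each of the 8 were sought over all 9482 tested, by the root mean square difference of mean-centred log2 levels over 15 arrays. Brca1 was closest to Rfc4, a subunit of the clamp loader of replication (0.169), and Brca2 to Pcna, the sliding clamp itself (0.25). For Chek1 they were Mcm6 and Mcm4, subunits of the replicative helicase (0.208 and 0.256), and then Rad51ap1 (0.34). Rad51ap1 lay nearest to Fignl1 (0.297), Rad54l to Mre11a (0.325), Fancd2 to Dek (0.199) and Blm to Dck and Chek2 (0.237 and 0.239). Exo1 had the most distant neighbour, Ccne2 (0.454), a cyclin of S phase entry. This measure follows the size of a change, so the gap between untreated and treated liver sets most of it, and over the 12 treated arrays alone only 6 of the 24 nearest genes were shared. Among the 8 themselves Rad51ap1 and Chek1 were the closest pair (0.34) and Rad51ap1 and Fancd2 the farthest (1.964).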

How the data were processed

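Liver RNA was hybridised to a whole-genome Affymetrix mouse array with a 3' labelling kit, per the labels' protocols. The deposited values are log2 probe set levels that the authors made with GCRMA, per the submitters' processing notes; its version and settings are not given in the sources used here, and values were taken as deposited. Per array, 34.6% to 36.7% of 45101 probe sets reached 4; arrays of a group correlated at 0.976 to 0.993. The number of arrays limits the precision.

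Probe sets with 1 symbol and a level of 4 on at least 3 arrays were kept (15541), and each gene was represented by its brightest kept probe set on average (9482 genes). Groups followed the labels. Limma 3.58.1 in R 4.3.3 fitted 4 group means to all 15 arrays (11 residual degrees of freedom), with Benjamini-Hochberg adjustment within each of 6 comparisons, and was tested on simulated data. Tables and plots used Python 3.11.15, pandas 2.3.3 and matplotlib 3.10.9. Summed levels are log2 of summed linear values.

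The 8 genes and all lists were chosen with earlier results of these data known. Named list genes were up to 3 called genes with the largest difference per list and comparison, genes called against their list's direction, and the 3 nearest in pattern. Alternatives were centring, quantile normalization, a floor or filters on low values, averaging the probe sets of 1 gene or testing all of them separately, weighting arrays, fitting 2 groups alone, a trended robust prior, a threshold of 0.01 and leaving out each array.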

Additional observations from a re-analysis of the deposited data

Results flagged for a closer look

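Gaps within the 3 groups of 4 arrays were examined for each of the 14 tested probe sets of the 8 genes, 42 in all, and chance alone flags about 1 group in 20. One array stood apart from the rest of its group in 2 of them. For the Rad54l probe set 1423124_x_at, treated wild-type array 4 read 4.56 and the other 3 arrays all 4.74. For the dim Chek1 probe set 1439208_at, mutant array 10 read 4.20 and the other 3 arrays 3.46 to 3.52. Neither probe set stands for its gene in the tests.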

How the results depend on the processing

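In treated against untreated wild type all 8 genes stayed called higher under each alternative run and without each array, except with the filter at 6, where Fancd2 was not tested. Against treated wild type, the mutant count was 8 lower, 7 to 8 without each array, and 5 at an adjusted p under 0.01. Fancd2, testable only through treated wild-type arrays, is part of the 8 and the 5, and of the antibiotic count of 6. The antibiotic count was 6 lower, 1 at an adjusted p under 0.01, and 3 to 8 without each array, with 3 without array 7 or 12 and 8 without array 13. Between mutant and antibiotic group 0 were called, and 0 to 2 without each array. No gene changed direction in the comparisons with treated or untreated wild type. Between mutant and antibiotic group, uncalled differences changed sign for Fancd2 with quantile normalization (0.01), Chek1 with array weights (0.02), without array 8 (0.15) and without array 13 (0.22), Rad51ap1 without array 8 (0.01) and array 13 (0.07), and Exo1 without array 10 (-0.07); the cause was not tested. Without each array these ran from -0.20 to 0.22 for Chek1, -0.35 to 0.07 for Rad51ap1 and -0.07 to 0.48 for Exo1. Only 2 promoters held an E2F heptamer in the 250 bases before the start, since the shorter window drops sites after it. Of the 24 nearest genes 6 were shared over the 12 treated arrays. Of 264 repair list counts under centring or quantile normalization, 48 moved by over 1.5 times, 10 of them by more than 2 genes. Over all genes, calls were 2917 in the mutant against treated wild type (1690 at an adjusted p under 0.01), 1323 in the antibiotic group (413 at 0.01, 838 without array 7, 820 without array 12) and 1165 between those groups (428 at 0.01, 673 with 2 groups fitted alone, 723 without array 8, 757 without array 14). No paired analysis was possible because the labels number the arrays from 1 to 15 and no number occurs in 2 groups. Fancd2 on all but 3 arrays, and the untreated arrays of all genes except Brca1 and Brca2 (2 of 3 arrays for Blm), lay under 4, which limits those folds to lower bounds.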
